A study of Mus musculus with 19 samples.

Results

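KI-571 mice, which express an N-terminal fragment of mutant huntingtin (HTT), were compared with KI-FL mice, which express mutant HTT at full length. The members are the 4 KI-571 and the 4 KI-FL mice, chosen by the genotype given in the labels, 8 of the 19 mice of the series, and they were described across all genes counted in them. Both groups come from HD140Q knock-in (KI) mice, in which the mouse Htt gene carries an expanded CAG repeat that encodes a long polyglutamine (polyQ) tract. In KI-571 mice CRISPR/Cas9 had been used to cut the mutant allele short, and the name gives the last HTT residue retained. KI-FL mice carried the same repeat in an untruncated allele. All 8 mice were on a C57/BL/6 background, and 6 months old. By the study's methods KI-571 mice were bred as heterozygotes, with a normal Htt allele beside the cut one, whereas neither the methods for the sequenced KI-FL mice nor the labels state how many of their alleles carried the repeat. The other 11 mice, 7 wild-type (WT) and 4 KI-96 mice, entered the fit and are used below for the WT level only. All 7 WT mice were kept. KI-571 mice descended from edited founders that had been crossed with WT mice, whereas KI-FL mice came from a standing colony, so that the length of HTT and the breeding line cannot be told apart. Nor do the labels give the sex or the day of sacrifice. Striatal RNA was sequenced, and reads were counted per gene. Levels are given as CPM, that is, a gene's reads divided by those of its library after normalization. A difference is a log2 fold change, KI-571 minus KI-FL, with its standard error.

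HTT is a large scaffold protein that serves vesicle transport along microtubules and interacts with transcription factors. Proteases and aberrant splicing produce N-terminal fragments of mutant HTT that carry the polyQ tract, enter the nucleus and form inclusions. Projection neurons of the striatum are the cells lost first in Huntington disease. Whether a short and a full-length form act differently in the striatum is the question that the comparison addresses.

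One KI-FL library stood apart before any comparison was made. The library of KI-FL replicate 4 had 16384 genes with at least 1 read, against 23177 to 28700 in the other 18 mice, and 275 genes with exactly 1 read, against 1229 to 3032. Of the 18521 genes tested, 3186 had no read in it, against 10 to 222 in each other mouse. The 8 mice had 12669809 to 22389330 reads on genes, and this library was not the smallest. All results are therefore given with it (19 mice in the fit) and without it (18 mice). The sex-linked genes also differed among mice of a group, since Xist, the RNA that silences an X chromosome in females, reached 1209.6 CPM in the second KI-FL mouse (replicate 2) and 0.913 to 5.05 CPM in the other 7 mice. The Y-linked genes Ddx3y, Eif2s3y, Kdm5d and Uty had 0 reads in that mouse alone. Markers of striatal projection neurons were present in each library, with a summed level of 17272 to 23409.8 CPM over 30 genes. Replicates are different mice, but nothing in the labels says whether they came from different litters.

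Htt itself was checked first. It was counted at 141, 124, 127 and 104 CPM in KI-571 mice and 160.2, 155, 179 and 137 CPM in KI-FL mice, and at 168 to 195 CPM in the 7 WT mice, with a median of 173 CPM. These reads come from the normal and the mutant allele together, since counts per gene do not separate them. The KI-571 mice lay lower, but KI-571 replicate 1 was above KI-FL replicate 4. The log2 fold change was -0.35 with KI-FL replicate 4 (edgeR unadjusted p = 0.0118, adjusted p = 0.439) and -0.41 without it (unadjusted p = 0.00569, adjusted p = 0.507). Htt therefore did not pass the test across all genes.

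With all mice, 16 of 18521 genes differed between KI-571 and KI-FL (edgeR quasi-likelihood test, Benjamini-Hochberg adjusted p under 0.05), 11 higher and 5 lower in KI-571. That is 0.0864% of the genes tested. Without KI-FL replicate 4, 1 of 18997 genes passed (0.00526%), and it was lower. The number called also rested on other mice, being 8, 4, 12 and 9 without KI-571 replicates 1, 2, 3 and 4 and 9, 4 and 15 without KI-FL replicates 1, 2 and 3. It was 0 without the 3 mice with a high level of choroid plexus genes (1374 genes at an unadjusted p under 0.05), described below. The sizes of the differences moved much less than the number of calls. The 16 genes had the same direction in the fit without KI-FL replicate 4, with log2 fold changes between 0.899 and 1.10 times those of the full fit. They were chosen by the full fit, and both fits share all other mice, so that this likeness is no independent support. The 15 that were lost had adjusted p-values of 0.0566 to 0.136. In each of the 16 genes the 4 KI-571 mice were all above or all below the 4 KI-FL mice, which choosing genes by a small p favours. At an unadjusted p under 0.05, 865 genes were higher in KI-571, of which 358 had no read in KI-FL replicate 4, and 232 of those 358 were also higher at that level without it. Over all genes tested, the KI-571 mice were all above the KI-FL mice in 2.28% and all below in 2.04%. The plot of the 16 genes by mouse shows this separation, and the plot of log2 fold changes in both fits shows their values with and without KI-FL replicate 4.

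**Figure D1:**
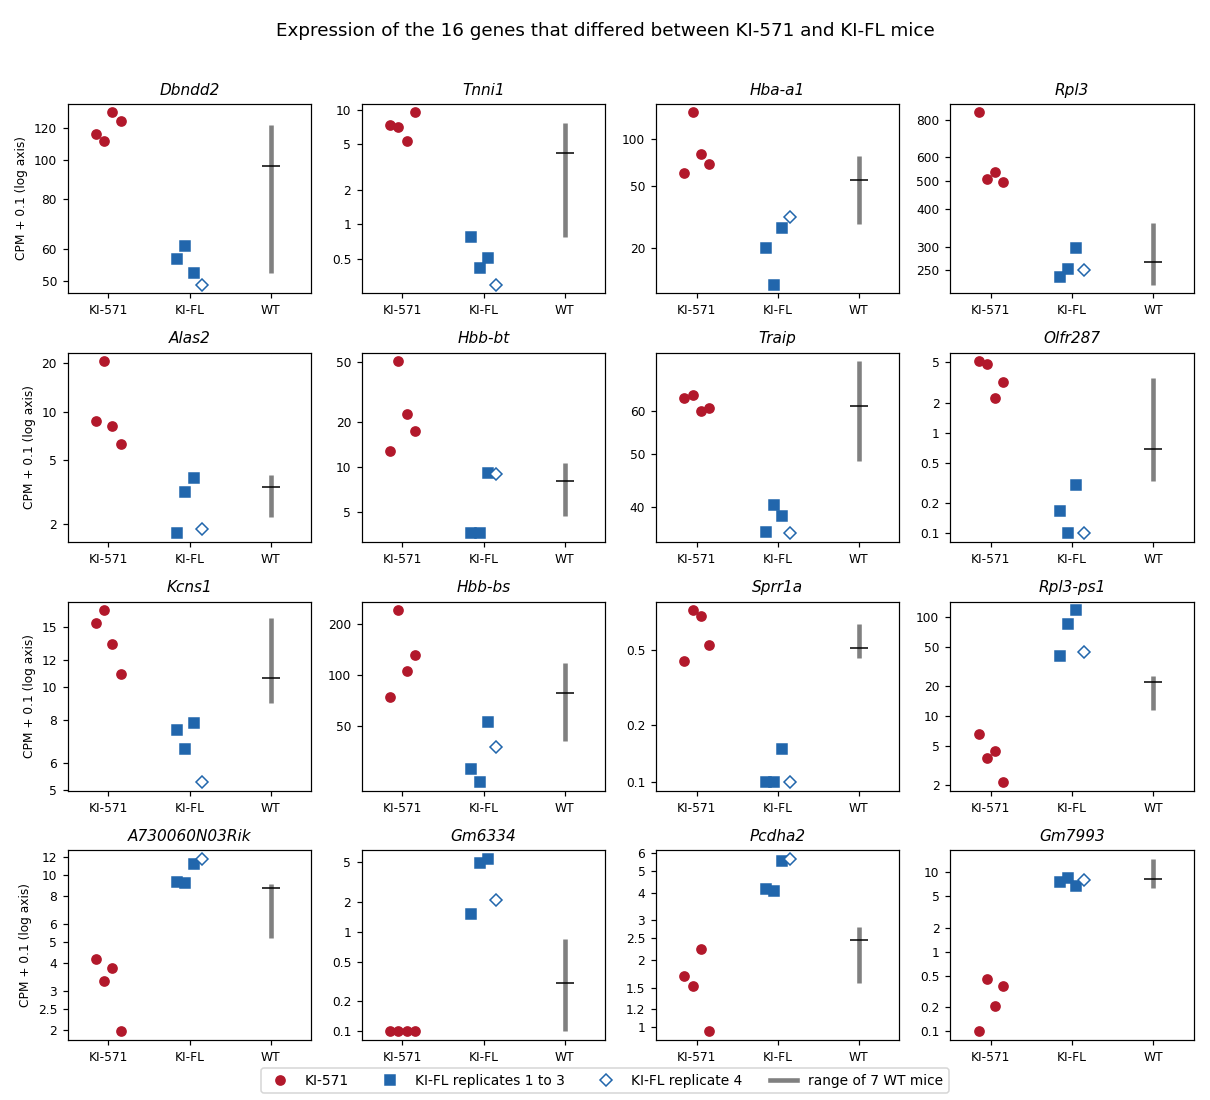
Levels of the 16 genes that passed the test in the fit of 19 mice, 1 panel a gene, as CPM plus 0.1 on a log axis, with red circles for KI-571 mice, blue squares for KI-FL replicates 1 to 3, an open diamond for KI-FL replicate 4 and a grey bar with a black tick for the range and median of the 7 WT mice. In each panel the KI-571 mice lie on 1 side of the KI-FL mice, KI-FL replicate 4 included.

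**Figure D2:**
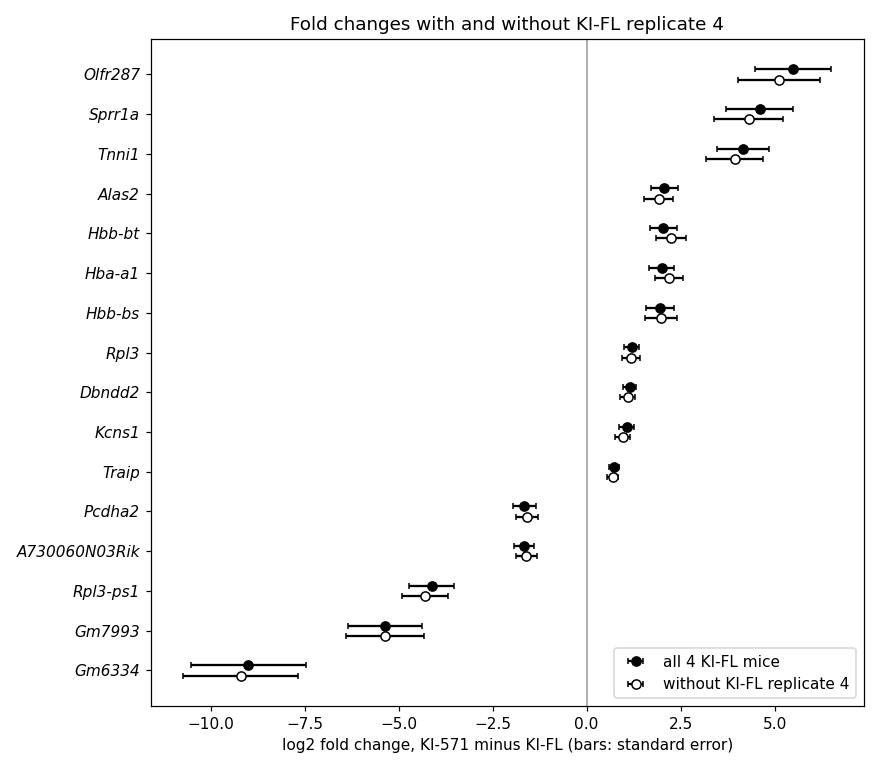
Log2 fold changes, KI-571 minus KI-FL, of the 16 called genes (horizontal axis, bars for the standard error), with filled points for the fit with all 4 KI-FL mice and open points for the fit without KI-FL replicate 4. In each gene the points of both fits lie on the same side of 0, and the open point is at 0.899 to 1.10 times the filled one.

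A red blood cell group made up 4 of the 11 genes that were higher. These were the haemoglobin genes Hba-a1 (chromosome 11, 32283511 to 32284465), Hbb-bt (chromosome 7, 103812524 to 103813996) and Hbb-bs (chromosome 7, 103826534 to 103828096; all positions are on GRCm38) and Alas2 (chromosome X, 150547375 to 150570638), the erythroid form of the first enzyme of heme synthesis. Alpha and beta globin chains pair to form haemoglobin, and reticulocytes still carry their mRNAs. The 150 bases before their RefSeq start sites (GRCm38.p6) are shown because these genes on separate chromosomes differed together. Capitals mark the letters GATA, CACCC and CCAAT on either strand, which are the core letters that erythroid GATA factors, Krüppel-like factors and CCAAT-binding factors recognise.
Hba-a1 (chr11:32283522-32283671, plus strand): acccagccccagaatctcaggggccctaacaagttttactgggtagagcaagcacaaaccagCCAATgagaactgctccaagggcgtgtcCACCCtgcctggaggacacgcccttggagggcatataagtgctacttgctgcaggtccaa
Hbb-bt (chr7:103813924-103814073, minus strand): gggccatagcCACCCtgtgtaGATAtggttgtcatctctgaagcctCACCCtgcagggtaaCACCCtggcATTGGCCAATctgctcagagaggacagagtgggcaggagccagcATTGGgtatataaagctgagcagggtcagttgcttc
Hbb-bs (chr7:103827929-103828078, minus strand): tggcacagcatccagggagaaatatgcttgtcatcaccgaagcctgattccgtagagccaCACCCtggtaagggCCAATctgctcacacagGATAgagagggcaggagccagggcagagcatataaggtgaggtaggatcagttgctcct
Alas2 (chrX:150547267-150547416, plus strand): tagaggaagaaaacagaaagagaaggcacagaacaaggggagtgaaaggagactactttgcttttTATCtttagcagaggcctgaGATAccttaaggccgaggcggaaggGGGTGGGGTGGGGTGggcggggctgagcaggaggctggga
CACCC was found in each of the 4 windows, GATA in those of Hbb-bt, Hbb-bs and Alas2, and CCAAT in those of the 3 globin genes. Among 32851 RefSeq promoters cut to the same 150 bases, GATA was found in 35.7%, CACCC in 37.4%, CCAAT in 24.5% and the 3 together in 2.69%. Such matches describe the letters and show no binding.

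Hba-a1 was counted at 60.4, 148, 79.7 and 69.3 CPM in KI-571 mice and 19.9, 11.5, 26.7 and 31.3 CPM in KI-FL mice. The lowest KI-571 mouse was above the highest KI-FL mouse, and the log2 fold change was 1.99 ± 0.33 with KI-FL replicate 4 (edgeR adjusted p = 0.0165) and 2.19 ± 0.36 without it (adjusted p = 0.0566). Alas2 was counted at 8.69, 20.4, 8.05 and 6.23 CPM in KI-571 mice and 1.66, 3.09, 3.79 and 1.76 CPM in KI-FL mice, with a log2 fold change of 2.06 ± 0.36 with KI-FL replicate 4 (edgeR adjusted p = 0.0258) and 1.92 ± 0.38 without it (adjusted p = 0.0946). For Hbb-bt the levels were 12.7, 50.6, 22.5 and 17.2 CPM in KI-571 mice and 3.52, 3.48, 8.95 and 8.81 CPM in KI-FL mice, and for Hbb-bs they were 74.2, 241, 106 and 132 CPM in KI-571 mice and 28.1, 23.4, 53.1 and 37.9 CPM in KI-FL mice. KI-571 replicate 2 was the highest mouse for each of the 4 genes. Hbb-bt had a log2 fold change of 2.04 ± 0.37 with KI-FL replicate 4 (edgeR adjusted p = 0.0258) and 2.25 ± 0.40 without it (adjusted p = 0.0583). That of Hbb-bs was 1.95 ± 0.37 with KI-FL replicate 4 (edgeR adjusted p = 0.0314) and 1.98 ± 0.42 without it (adjusted p = 0.136). Hba-a2, a near copy of Hba-a1, had a log2 fold change of 1.33 with KI-FL replicate 4 (edgeR unadjusted p = 0.0146, adjusted p = 0.455) and 1.30 without it (unadjusted p = 0.0291, adjusted p = 0.672). Reads of Hba-a1 and Hba-a2, and of the 2 beta genes, can be shared or discarded in counting, so that the split between copies is uncertain.

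Against WT, the log2 fold change of Alas2 was 1.77 for KI-571 minus WT (adjusted p = 0.0281) and -0.30 for KI-FL minus WT (adjusted p = 0.666). For Hbb-bt it was 1.68 for KI-571 minus WT (adjusted p = 0.0467) and -0.36 for KI-FL minus WT (adjusted p = 0.588), and for Hba-a1 0.76 for KI-571 minus WT (adjusted p = 0.413) and -1.23 for KI-FL minus WT (adjusted p = 0.0736). Both comparisons use the same 7 WT mice. Of the 8 tested genes on the list for red blood cells and heme, 4 were called and 5 had an unadjusted p under 0.05 and were higher, and 7 of the 8 were above 0 (6 without KI-FL replicate 4). Fech and Bpgm, which other cells also use, had log2 fold changes of 0.13 and 0.07. The median of the list was 1.64 with and 1.61 without KI-FL replicate 4, beside 0.02 and 0.01 over all genes. In bulk striatum, more cells of a type and more RNA per cell cannot be told apart, here and for each cell type below. The part that blood left in the tissue has in this difference was not tested. Within 1 Mb of Hbb-bt, 5 of 7 other tested genes (71.4%) were all above in KI-571 mice, beside 2.28% over all genes, namely Hbb-bs, itself called, and Trim12a, Trim12c, Trim30a and Trim34a. The Trim genes, chosen after their values were seen, encode ubiquitin ligase-like proteins of innate immunity. Their log2 fold changes were 1.26, 0.70, 0.76 and 1.92 (edgeR unadjusted p = 0.00510, 0.192, 0.0157 and 0.00347), and without KI-FL replicate 4 they were 1.09, 0.29, 0.71 and 1.51.

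The gene with the smallest p, and the only gene that passed in both fits, was Rpl3-ps1 (chromosome X, 13202571 to 13203780), a processed pseudogene of Rpl3, that is, a copy of its spliced mRNA inserted elsewhere in the genome. Rpl3 (chromosome 15, 80077791 to 80091868), which encodes a protein of the large ribosomal subunit, was itself called, in the opposite direction. A stretch of 90 bases from the start codon of both is shown because reads can be told apart only where the copies differ; the capital marks the base that differs there (C57A, Rpl3 first, counted from the A of the start codon).
Rpl3: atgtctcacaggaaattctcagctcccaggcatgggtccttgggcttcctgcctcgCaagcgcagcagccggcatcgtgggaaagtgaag
Rpl3-ps1: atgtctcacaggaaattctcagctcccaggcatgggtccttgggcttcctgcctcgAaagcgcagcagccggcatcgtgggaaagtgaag
Over the 1210 bases of the pseudogene the copies differ at 2 positions, C57A and T786C, an identity of 99.8%.

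Rpl3-ps1 was counted at 6.48, 3.69, 4.33 and 2.04 CPM in KI-571 mice and 40.8, 86.4, 118 and 44.97 CPM in KI-FL mice. Each KI-571 mouse was below, and each KI-FL mouse above, the range of 11.4 to 25.6 CPM in the 7 WT mice, with a median of 21.9 CPM. The log2 fold change was -4.12 ± 0.59 with KI-FL replicate 4 (edgeR adjusted p = 0.0105) and -4.30 ± 0.61 without it (adjusted p = 0.0131). Rpl3 was counted at 849, 505, 533 and 493 CPM in KI-571 mice and 238, 252, 296 and 250.4 CPM in KI-FL mice, so that KI-571 mice were higher. This was a log2 fold change of 1.20 ± 0.20 with KI-FL replicate 4 (edgeR adjusted p = 0.0214) and 1.18 ± 0.23 without it (adjusted p = 0.0826). Among the KI-571 mice, replicate 1 was far above the other three. Rpl3 had a log2 fold change of 1.07 for KI-571 minus WT (adjusted p = 0.0281) and -0.13 for KI-FL minus WT (adjusted p = 0.734). Added together, Rpl3 and Rpl3-ps1 came to 855, 508, 537 and 495 CPM in KI-571 mice and 278, 339, 415 and 295 CPM in KI-FL mice, with no overlap between the groups. Which copy a read near the shared sequence came from is uncertain, and the counts do not say whether a DNA difference between the lines alters the pseudogene. Of 78 genes for cytosolic ribosomal proteins, Rpl3 was the only one called; 57 were above and 21 below 0, with a median of 0.08 with and 0.11 without KI-FL replicate 4.

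Another 2 of the 5 lower genes, Gm7993 (chromosome 5, 95974240 to 95975623) and Gm6334 (chromosome 8, 4778042 to 4778269), were also processed pseudogenes. Gm7993, which matches Odc1 (ornithine decarboxylase, the first enzyme of polyamine synthesis) over 95.3% of aligned bases, was counted at 0, 0.357, 0.110 and 0.269 CPM in KI-571 mice and 7.37, 8.31, 6.72 and 7.83 CPM in KI-FL mice. The 7 WT mice were at 6.20 to 14.7 CPM, so that KI-FL mice lay in the WT range and KI-571 mice below it. Its log2 fold change was -5.37 ± 0.98 with KI-FL replicate 4 (edgeR adjusted p = 0.0258) and -5.35 ± 1.04 without it (adjusted p = 0.0826), and it was -5.76 for KI-571 minus WT (adjusted p = 0.0281) and -0.39 for KI-FL minus WT (adjusted p = 0.770). Odc1 had a log2 fold change of 0.61 (edgeR adjusted p = 0.0602) and did not pass. Gm6334, which matches Pkig, a protein kinase A inhibitor, over 95.2% of aligned bases, had 0 reads in the 4 KI-571 mice and 1.39, 4.83, 5.26 and 1.96 CPM in KI-FL mice. It was at least 20.5-fold lower in KI-571, taking a floor of 3 counts per library, and the adjusted p was 0.0258 with and 0.0583 without KI-FL replicate 4 (edgeR). WT mice had 0 to 0.745 CPM. Pkig itself did not pass. Its log2 fold change was 0.44 with KI-FL replicate 4 (edgeR unadjusted p = 0.00981, adjusted p = 0.421) and 0.32 without it (unadjusted p = 0.0492).

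Among genes with a mean of at least 1 CPM, 362 were all below and 278 all above in KI-571 mice. Processed pseudogenes made up 8 of the 362 (2.21%) and 2 of the 278 (0.719%), beside 148 of the 15408 tested at that level (0.960%). The other lower ones were Gm12312, Gm13736, Gm14150, Oaz2-ps and Snrpert, with log2 fold changes of -5.27, -6.00, -3.02, -2.94 and -1.11, and the higher ones were Gm2830 and Gm45874, at 0.67 and 1.41. None of these 7 passed the test (edgeR adjusted p = 0.119 to 0.657). They were taken up after the called pseudogenes had been seen, and their parents are Fgfr1op2, Srp9, Tuba1b, Oaz2, Snrpe, Rps24 and Rpl27. Gm12312 was counted at 0.0480, 0, 0.219 and 0 CPM in KI-571 mice and 2.39, 2.69, 2.27 and 3.98 CPM in KI-FL mice. It was close to absent in KI-571 mice, as Gm7993 was, and Gm13736 is identical to Srp9 over its 253 bases.

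Dbndd2 and Kcns1 lie 314993 bases apart on chromosome 2 and were both higher in KI-571. Dbndd2 (chromosome 2, 164486106 to 164493319) encodes a dysbindin-domain protein that binds casein kinase 1, and Kcns1 (chromosome 2, 164163619 to 164171113) encodes a potassium channel subunit that forms no channel alone and modifies its partners. Dbndd2 was counted at 116, 111, 131 and 125 CPM in KI-571 mice and 56.8, 61.04, 52.3 and 48.95 CPM in KI-FL mice. The 4 KI-571 mice lay within 111 to 131 CPM, and the KI-FL mice near the bottom of the WT range of 52.5 to 122 CPM. Its log2 fold change was 1.14 ± 0.18 with KI-FL replicate 4 (edgeR adjusted p = 0.0158) and 1.09 ± 0.20 without it (adjusted p = 0.0583). Kcns1 was counted at 15.3, 16.7, 13.3 and 10.8 CPM in KI-571 mice and 7.37, 6.49, 7.73 and 5.16 CPM in KI-FL mice, with a log2 fold change of 1.06 ± 0.20 with KI-FL replicate 4 (edgeR adjusted p = 0.0258) and 0.96 ± 0.20 without it (adjusted p = 0.132). Of 42 other tested genes within 1 Mb of Dbndd2, 2 were all above, Kcns1 itself and Gm16316, and 0 all below. This share of 4.76% is near that over all genes, 2.28% all above and 2.04% all below. At an unadjusted p under 0.05 (edgeR), 5 of the 42, Kcns1 among them, were higher in KI-571 and 4 were lower. Both shares are larger than those over all genes, 4.67% higher and 4.23% lower. Dbndd2 is also abundant in oligodendrocytes, whose markers are described below.

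Tnni1 (chromosome 1, 135779434 to 135810989), the slow-muscle form of troponin I, was counted at 7.25, 6.96, 5.26 and 9.40 CPM in KI-571 mice and 0.664, 0.317, 0.404 and 0.196 CPM in KI-FL mice. No KI-FL mouse reached 1 CPM, and the 7 WT mice were spread from 0.675 to 7.60 CPM. The log2 fold change was 4.16 ± 0.68 with KI-FL replicate 4 (edgeR adjusted p = 0.0165) and 3.94 ± 0.76 without it (adjusted p = 0.0826), and it was 1.05 for KI-571 minus WT (adjusted p = 0.597) and -3.11 for KI-FL minus WT (adjusted p = 0.0462). Near Tnni1, 8 of 41 tested genes within 1 Mb (19.5%) did not overlap between the groups, beside 2.28% and 2.04% over all genes. Lmod1, Shisa4, Nav1 and Gm15445 were all above, at 2.78, 0.36, 0.56 and 3.06 on the log2 scale, and Ipo9, Rnpep, Ddx59 and Zfp281 all below, at -0.35, -0.35, -0.52 and -0.24. These neighbours, chosen after their values were seen, went in both directions, and the median over the window was 0.03.

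Traip (chromosome 9, 107950136 to 107972270) encodes a ubiquitin ligase that acts on stalled DNA replication forks. It was counted at 63.4, 64.03, 59.9 and 60.6 CPM in KI-571 mice and 35.8, 40.3, 38.5 and 35.7 CPM in KI-FL mice, with little spread within either group. The WT mice, at 48.5 to 73.97 CPM, held the KI-571 values and not the KI-FL values. The log2 fold change was 0.72 ± 0.13 with KI-FL replicate 4 (edgeR adjusted p = 0.0258) and 0.70 ± 0.14 without it (adjusted p = 0.127), and it was -0.0042 for KI-571 minus WT (adjusted p = 0.998) and -0.73 for KI-FL minus WT (adjusted p = 0.0279). Mcm6, a subunit of the replicative helicase, was counted at 6.92, 6.31, 6.68 and 6.71 CPM in KI-571 mice and 1.66, 2.22, 1.97 and 0 CPM in KI-FL mice and had a log2 fold change of 2.18 with KI-FL replicate 4 (edgeR unadjusted p = 0.000389, adjusted p = 0.167) and 1.77 without it (unadjusted p = 2.57e-05, adjusted p = 0.0610).

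Genes of very low count completed those that were higher. Olfr287 (chromosome 15, 98206971 to 98221056), an olfactory receptor gene, was counted at 5.04, 4.76, 2.14 and 3.12 CPM in KI-571 mice and 0.0664, 0, 0.202 and 0 CPM in KI-FL mice, with 282 reads in all KI-571 mice and 5 in all KI-FL mice. Its fitted log2 fold change, which at so few reads depends on the prior count, was 5.49 ± 1.01 with KI-FL replicate 4 (edgeR adjusted p = 0.0258) and 5.11 ± 1.09 without it (adjusted p = 0.136). Sprr1a (chromosome 3, 92483952 to 92485895), a small proline-rich protein of the cornified envelope that injured neurons also make, had 39 reads in the 4 KI-571 mice and 1 in the 4 KI-FL mice. The ratio of these sums was 33.1, with a 95% interval of 5.60 to 1341 that covers counting error only. The adjusted p of Sprr1a was 0.0412 with and 0.136 without KI-FL replicate 4 (edgeR).

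A730060N03Rik (chromosome 15, 78119706 to 78144142) is an antisense transcript within Cacng2, the gene of stargazin, an auxiliary subunit of AMPA receptors. It was counted at 4.08, 3.21, 3.72 and 1.88 CPM in KI-571 mice and 9.23, 9.10, 11.1 and 11.7 CPM in KI-FL mice, and the log2 fold change was -1.67 ± 0.27 with KI-FL replicate 4 (edgeR adjusted p = 0.0165) and -1.60 ± 0.28 without it (adjusted p = 0.0583). Cacng2 itself had a log2 fold change of 0.08. Whether the counting used strand is not given in the sources used here, so that reads of a gene and its antisense partner cannot be told apart. Gm41361, an antisense transcript that overlaps Pdgfb and lies 79537 bases from Rpl3, was counted at 0.865, 0.179, 0.548 and 0.806 CPM in KI-571 mice and 1.86, 2.38, 2.48 and 3.85 CPM in KI-FL mice and missed the threshold, with a log2 fold change of -2.11 with KI-FL replicate 4 (edgeR unadjusted p = 4.84e-05, adjusted p = 0.0527) and -1.87 without it (unadjusted p = 0.000136, adjusted p = 0.136). Klf5, a transcription factor, was at 19.2, 12.1, 19.99 and 15.8 CPM in KI-571 mice and 21.97, 33.8, 34.6 and 30.4 CPM in KI-FL mice, and Nhlrc1, the ubiquitin ligase malin, at 16.8, 12.9, 16.9 and 14.98 CPM in KI-571 mice and 20.4, 27.4, 21.9 and 21.4 CPM in KI-FL mice. Both were all below in KI-571 mice, as was the non-coding C230014O12Rik, and none of the 3 passed, with adjusted p-values of 0.0736, 0.206 and 0.206 with KI-FL replicate 4 (edgeR).

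Set against WT, 4 of the 16 genes passed for KI-571 (Alas2, Hbb-bt, Rpl3 and Gm7993), 4 others for KI-FL (Dbndd2, Sprr1a, Tnni1 and Traip), and 0 for both. The difference between the forms was thus not placed on the same side of WT for all genes. The log2 fold change of Dbndd2 was 0.37 for KI-571 minus WT (adjusted p = 0.528) and -0.77 for KI-FL minus WT (adjusted p = 0.0462), and that of Rpl3-ps1 was -2.20 for KI-571 minus WT (adjusted p = 0.125) and 1.92 for KI-FL minus WT (adjusted p = 0.0605). The WT mice are shared by these comparisons.

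Pcdha2 (chromosome 18, 36939205 to 37187657) was the fifth gene that was lower, and it belongs to the clustered protocadherins. These are neuronal adhesion molecules whose variable exons, each with its own promoter, are spliced to shared exons within the alpha and gamma clusters, so that a neuron shows a particular combination on its surface. Pcdha2 was counted at 1.59, 1.43, 2.14 and 0.859 CPM in KI-571 mice and 4.05, 3.96, 5.46 and 5.55 CPM in KI-FL mice, with 7 WT mice at 1.48 to 2.70 CPM, and the log2 fold change was -1.66 ± 0.30 with KI-FL replicate 4 (edgeR adjusted p = 0.0258) and -1.58 ± 0.29 without it (adjusted p = 0.0610). The other members were examined after Pcdha2 had been seen. Of 55 tested members, 45 were below 0, 17 had an unadjusted p under 0.05 and were lower (19 without KI-FL replicate 4), and 0 were higher at that level (0 without it). Over all genes 52.8% were above 0, and 4.23% were lower and 4.67% higher at that level (2.97% and 3.73% without KI-FL replicate 4). The KI-571 mice were all below in 11 members and all above in 0. The median was -0.42 with and -0.36 without KI-FL replicate 4.

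The alpha cluster had 4 such members of 12 (Pcdha2, Pcdha7, Pcdha11 and Pcdha12), the beta cluster 8 of 22 and the gamma cluster 5 of 21. Pcdhga9 was counted at 17.6, 13.2, 10.8 and 9.99 CPM in KI-571 mice and 21.9, 20.3, 26.9 and 24.3 CPM in KI-FL mice, with a log2 fold change of -0.86 with KI-FL replicate 4 (edgeR unadjusted p = 0.000700, adjusted p = 0.238) and -0.84 without it (unadjusted p = 0.00180, adjusted p = 0.384). Pcdhb17 was at 17.4, 18.6, 17.2 and 18.6 CPM in KI-571 mice and 26.9, 20.5, 25.1 and 26.5 CPM in KI-FL mice, giving a log2 difference of -0.46 with KI-FL replicate 4 (edgeR unadjusted p = 0.00265, adjusted p = 0.322) and -0.43 without it (unadjusted p = 0.00720, adjusted p = 0.526). Pcdha11 was at 2.64, 1.07, 0.931 and 0.644 CPM in KI-571 mice and 3.45, 2.85, 3.59 and 3.20 CPM in KI-FL mice, giving a log2 difference of -1.30 with KI-FL replicate 4 (edgeR unadjusted p = 0.00232, adjusted p = 0.322) and -1.31 without it (unadjusted p = 0.00251, adjusted p = 0.437). None of the members but Pcdha2 passed the adjusted threshold. Summed over the 55 members the level was 652, 503, 491 and 433 CPM in KI-571 mice and 638, 679, 726 and 631 CPM in KI-FL mice, and 438 to 590.0 CPM in WT mice. KI-571 replicate 1 was above 2 of the KI-FL mice, so that the sums overlapped, while the KI-FL mice were all above the WT range. The medians were -0.01 for KI-571 minus WT and 0.33 for KI-FL minus WT. Pcdha2 overlaps other alpha members in the annotation, and members of the alpha and gamma clusters share exons, so that their counts are not independent.

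**Figure D3:**
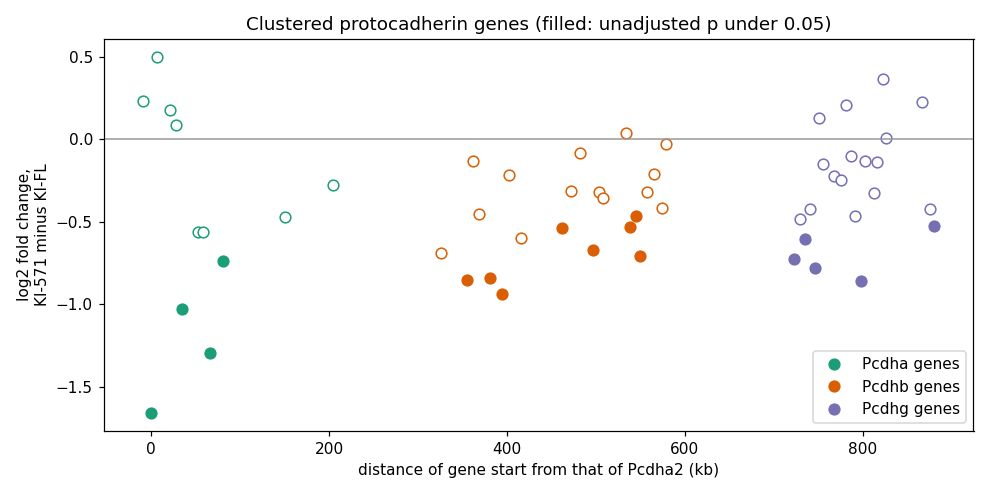
Log2 fold changes, KI-571 minus KI-FL, of the 55 clustered protocadherin genes tested (vertical axis), against the distance of their start from that of Pcdha2 in kb (horizontal axis), coloured by cluster and filled where the unadjusted p is under 0.05. Of these, 45 lie below 0, the 17 filled points all do, and Pcdha2, at -1.66, is the lowest.

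Cell types and pathways were then examined with 34 gene lists, on which 776 of 802 genes were tested. Of these 5 were called, namely the 4 red blood cell genes and Rpl3. The other 767 tested genes that are neither Rpl3 nor on the red blood cell list had adjusted p-values of at least 0.322 with and 0.336 without KI-FL replicate 4 (edgeR), so that 32 of the 34 lists held 0 called genes. At an unadjusted p under 0.05, 31 of the 776 were higher (3.99%) and 20 lower (2.58%), and without KI-FL replicate 4 it was 27 higher (3.47%) and 13 lower (1.67%) of 779. These shares lie near or under those of all genes, 4.67% and 4.23% with and 3.73% and 2.97% without that mouse. The lists below are therefore described by their medians and by the level in each mouse. Where members above or below 0 are counted, 52.8% of all genes tested were above 0 with and 50.9% without KI-FL replicate 4.

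**Figure D4:**
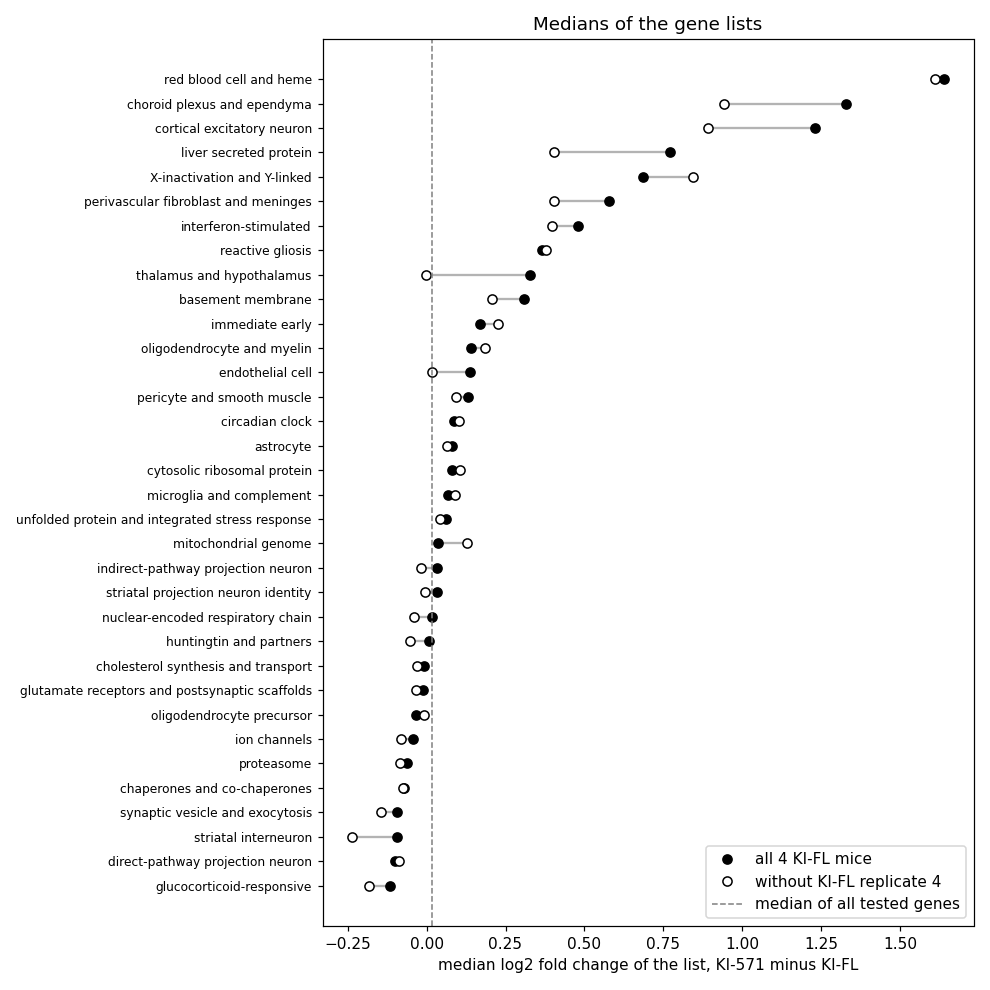
Median log2 fold change, KI-571 minus KI-FL, of the tested genes of each of the 34 gene lists, with KI-FL replicate 4 and without it. The red blood cell and heme list lies highest, at 1.64 and 1.61, and the projection neuron lists lie near 0.

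The list for reactive gliosis, the state of astrocytes around injured or sick neurons, had a median of 0.36 with and 0.38 without KI-FL replicate 4. Its 15 tested genes were all above 0 with KI-FL replicate 4, and 13 were without it. Gfap, the intermediate filament of reactive astrocytes, was counted at 153, 122, 202 and 164 CPM in KI-571 mice and 106, 134, 129.9 and 130.4 CPM in KI-FL mice. KI-571 replicate 2 was below 3 of the KI-FL mice, so that the groups overlapped. Gfap had a log2 fold change of 0.36 with KI-FL replicate 4 (edgeR unadjusted p = 0.127, adjusted p = 0.645) and 0.38 without it (unadjusted p = 0.148, adjusted p = 0.836). Lcn2, a lipocalin that reactive astrocytes secrete, was at 0.624, 0.119, 0.438 and 6.02 CPM in KI-571 mice and 0, 0.0792, 0.253 and 0 CPM in KI-FL mice, with KI-571 replicate 4 far above the others. For Lcn2 the log2 fold change was 4.21 with KI-FL replicate 4 (edgeR unadjusted p = 0.00303, adjusted p = 0.322) and 3.82 without it (unadjusted p = 0.00935, adjusted p = 0.553). Osmr, the oncostatin M receptor, stood at 5.67, 3.15, 2.63 and 5.26 CPM in KI-571 mice and 3.05, 1.98, 2.17 and 2.55 CPM in KI-FL mice. The summed level of the list was 232, 197, 293 and 262 CPM in KI-571 mice and 186, 195, 201 and 202 CPM in KI-FL mice, and only KI-571 replicate 2 lay within the KI-FL values. Of the 15 genes, 4 had no read in KI-FL replicate 4. The medians against WT were 0.11 for KI-571 minus WT and -0.36 for KI-FL minus WT.

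Markers of resting astrocytes had a median of 0.08 with and 0.07 without KI-FL replicate 4 over 16 genes, with 1 gene, Sox9, a transcription factor of glia, at an unadjusted p under 0.05 (31.8, 47.01, 51.6 and 41.03 CPM in KI-571 mice and 35.6, 28.7, 35.8 and 29.5 CPM in KI-FL mice), and none there without that mouse. Summed over the list the level was 7894, 7576, 7310.2 and 6892 CPM in KI-571 mice and 6868, 6876, 6425 and 6713 CPM in KI-FL mice. The KI-571 sums were all above the KI-FL sums, by a narrow margin between KI-571 replicate 4 and KI-FL replicate 2, and WT mice ran from 6597 to 7757 CPM. For oligodendrocytes and myelin the median was 0.14 with and 0.18 without KI-FL replicate 4, and 23 of 26 genes were above 0. Mobp, a myelin protein, was counted at 2026, 1723, 2612 and 2163 CPM in KI-571 mice and 1505, 1807, 1711 and 1788 CPM in KI-FL mice, and its log2 fold change was 0.32 with KI-FL replicate 4 (edgeR unadjusted p = 0.0374, adjusted p = 0.532) and 0.35 without it (unadjusted p = 0.0453, adjusted p = 0.732). Summed over the list the level was 13531, 13833, 17395 and 17473 CPM in KI-571 mice and 13036, 12750.0, 13042 and 13706 CPM in KI-FL mice. KI-571 replicates 3 and 4 were high, while replicates 1 and 2 lay within or near the KI-FL mice. Precursors of oligodendrocytes had a median of -0.03 with and -0.01 without KI-FL replicate 4 over 10 genes.

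Microglia, the resident immune cells of the brain, had a median of 0.07 with and 0.09 without KI-FL replicate 4 over 20 genes, of which 3 were higher at an unadjusted p under 0.05. In both fits 12 of the 20 were above 0 and 8 below, with 0 lower at that level. The lowest log2 fold change was -0.33 with and -0.24 without KI-FL replicate 4. P2ry12, the ADP receptor of resting microglia, was counted at 29.2, 32.2, 27.1 and 40.2 CPM in KI-571 mice and 26.4, 22.3, 21.3 and 24.7 CPM in KI-FL mice. The KI-571 mice were all above the KI-FL mice by a small margin. P2ry12 had a log2 fold change of 0.44 with KI-FL replicate 4 (edgeR unadjusted p = 0.00646, adjusted p = 0.385) and 0.46 without it (unadjusted p = 0.00905, adjusted p = 0.552). Fcrls, another microglial receptor, stood at 23.6, 19.04, 21.6 and 18.4 CPM in KI-571 mice and 14.8, 17.2, 12.03 and 12.1 CPM in KI-FL mice, also without overlap, and Ly86 had a log2 fold change of 0.74 with KI-FL replicate 4 (edgeR unadjusted p = 0.0267, adjusted p = 0.497) and 0.45 without it (unadjusted p = 0.0809, adjusted p = 0.784). The summed level, 709, 711, 702 and 725 CPM in KI-571 mice and 641, 719.9, 688 and 786 CPM in KI-FL mice, did not separate the groups.

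Interferon-stimulated genes had a median of 0.48 with and 0.40 without KI-FL replicate 4 over 23 genes, with 20 above 0, and 23 above 0 without that mouse, in which 10 of them had no read. Ifit1, which binds viral RNA, was counted at 2.07, 1.31, 2.96 and 4.03 CPM in KI-571 mice and 0.996, 0.713, 0.960 and 0 CPM in KI-FL mice. Even its lowest KI-571 value was above the highest KI-FL value. Its fitted log2 fold change was 1.94 with KI-FL replicate 4 (edgeR unadjusted p = 0.00257, adjusted p = 0.322) and 1.53 without it (unadjusted p = 0.00216, adjusted p = 0.423). Irf7, a transcription factor of the response, had a log2 fold change of 1.67 with KI-FL replicate 4 (edgeR unadjusted p = 0.0253, adjusted p = 0.497) and 1.26 without it (unadjusted p = 0.0466, adjusted p = 0.739), and Oasl2 one of 1.70 with KI-FL replicate 4 (edgeR unadjusted p = 0.0154, adjusted p = 0.461) and 1.29 without it (unadjusted p = 0.0238, adjusted p = 0.656). The median of the list was 0.39 for KI-571 minus WT and -0.32 for KI-FL minus WT. Its summed level was 137, 196, 210.2 and 234 CPM in KI-571 mice and 156, 175, 144 and 124 CPM in KI-FL mice, and the groups overlapped, with KI-571 replicate 1 below KI-FL replicates 1, 2 and 3.

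For the cells of vessels, the endothelial list had a median of 0.14 with and 0.02 without KI-FL replicate 4 over 22 genes. Of these, 19 were above and 3 below 0 with that mouse, and 12 above and 10 below without it. At an unadjusted p under 0.05 (edgeR), 1 was higher and 1 lower without it. The pericyte and smooth muscle list had a median of 0.13 with KI-FL replicate 4 over 12 genes and 0.09 without it over 13. It had 7 genes above and 5 below 0 with that mouse, and 7 above and 6 below without it. Vwf, the clotting factor that endothelial cells store, was counted at 24.6, 21.7, 16.98 and 18.8 CPM in KI-571 mice and 13.9, 12.9, 13.1 and 21.5 CPM in KI-FL mice. KI-FL replicate 4 was above the other KI-FL mice, and the log2 fold change of Vwf was 0.42 with KI-FL replicate 4 (edgeR unadjusted p = 0.103, adjusted p = 0.629) and 0.62 without it (unadjusted p = 0.0214, adjusted p = 0.653). Vtn, a matrix protein made by pericytes, was at 66.6, 47.8, 49.5 and 47.5 CPM in KI-571 mice and 39.9, 35.7, 46.9 and 55.7 CPM in KI-FL mice, with a log2 fold change of 0.25 with KI-FL replicate 4 (edgeR unadjusted p = 0.119, adjusted p = 0.641) and 0.37 without it (unadjusted p = 0.0251, adjusted p = 0.666). Ly6a, an endothelial surface protein, was at 9.75, 17.8, 14.5 and 21.2 CPM in KI-571 mice and 12.4, 12.03, 9.91 and 4.76 CPM in KI-FL mice. Summed over the endothelial list the level was 938, 959.5, 765 and 1045 CPM in KI-571 mice and 953, 780.3, 783 and 747 CPM in KI-FL mice, and the groups overlapped.

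Basement membrane genes, which encode the sheet of matrix around vessels, had a median of 0.31 with and 0.21 without KI-FL replicate 4 over 22 genes, and 19 were above 0. Col4a4, Col4a5, Col4a6 (chains of type IV collagen) and Lama3 (a laminin chain) were higher at an unadjusted p under 0.05 (edgeR). These were 4 of the 22, and 3 of the 22 were higher at that level without KI-FL replicate 4. Over all genes 4.67% were higher at that level with and 3.73% without that mouse. In KI-FL replicate 4 itself, 4 of the 22 genes had no read. Col4a5 was counted at 2.79, 5.77, 3.12 and 9.45 CPM in KI-571 mice and 3.25, 2.06, 2.48 and 3.26 CPM in KI-FL mice, and KI-571 replicates 2 and 4 were the high mice. Its log2 fold change was 0.93 with KI-FL replicate 4 (edgeR unadjusted p = 0.0101, adjusted p = 0.427) and 1.02 without it (unadjusted p = 0.00890, adjusted p = 0.552), and that of Lama3, whose groups did not overlap, was 0.46 with KI-FL replicate 4 (edgeR unadjusted p = 0.0258, adjusted p = 0.497) and 0.49 without it (unadjusted p = 0.0238, adjusted p = 0.656). Perivascular fibroblasts and meninges had a median of 0.58 with and 0.40 without KI-FL replicate 4 over 14 genes, 7 of which had no read in KI-FL replicate 4. Slc6a20a, an amino acid transporter, was counted at 2.69, 9.22, 4.33 and 8.06 CPM in KI-571 mice and 5.51, 3.96, 2.22 and 1.24 CPM in KI-FL mice. Fmod, a small matrix proteoglycan, had a log2 fold change of -0.01 with KI-FL replicate 4 (edgeR unadjusted p = 0.982, adjusted p = 0.996) and 1.35 without it (unadjusted p = 0.0201, adjusted p = 0.653), with 7.44 CPM in KI-FL replicate 4 and 0.202 to 2.06 CPM in the other KI-FL mice. Its value thus rested on that mouse.

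Markers of the choroid plexus, which lines the ventricle beside the striatum and secretes cerebrospinal fluid, varied by mouse within both groups. Ttr, the thyroid hormone carrier that it makes in large amounts, was counted at 138, 4813, 18.4 and 4948 CPM in KI-571 mice and 2783, 123, 37.7 and 22.98 CPM in KI-FL mice, so that KI-571 replicates 2 and 4 and KI-FL replicate 1 were high. The 16 genes of the list for choroid plexus and ependyma, the ciliated lining of the ventricle, were all above 0, with a median of 1.33 with and 0.94 without KI-FL replicate 4, and 7 had no read in KI-FL replicate 4. Summed over the list the level was 262, 5299, 102 and 5584 CPM in KI-571 mice and 3182, 224, 123 and 68.5 CPM in KI-FL mice. The summed levels of the perivascular and liver-type lists were highest in the same 3 mice. In each mouse most of the liver sum was Ttr itself, which that list shares with the choroid plexus list. The part of choroid plexus in the perivascular list and in the other liver genes was not tested. The liver list, which includes Ttr, had a median of 0.77 with KI-FL replicate 4 over 6 genes and 0.40 without it over 7. Its summed level was 143, 4820.0, 28.3 and 4961 CPM in KI-571 mice and 2788, 138, 41.7 and 24.2 CPM in KI-FL mice. In alternatives added after the data had been seen, 5 of the 16 genes passed with log2 CPM of Ttr as a covariate, and 0 passed without the 3 mice with high Ttr (edgeR, 1374 genes at an unadjusted p under 0.05), which leaves 2 KI-571 against 3 KI-FL mice. DESeq2 was not run in that setting.

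**Figure D5:**
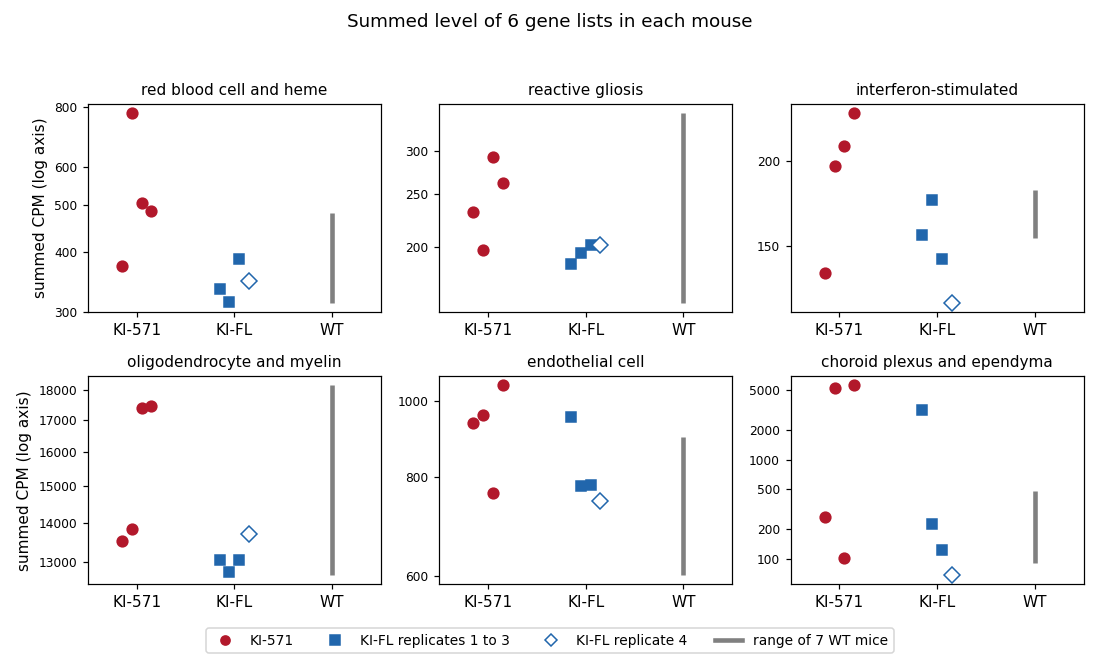
Summed CPM of 6 gene lists by mouse on log axes, with red circles for KI-571 mice, blue squares for KI-FL replicates 1 to 3, an open diamond for KI-FL replicate 4 and a grey bar for the range of the 7 WT mice. The choroid plexus panel spans 68.5 to 5584 CPM, with KI-571 replicates 2 and 4 and KI-FL replicate 1 high, whereas the oligodendrocyte panel spans 12750.0 to 17473 CPM in the 8 mice.

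Striatal projection neurons are the main cell type of the tissue. The 30 genes of projection neuron identity and dopamine signalling had a median of 0.03 with and -0.0041 without KI-FL replicate 4, with 0 genes higher and 0 lower at an unadjusted p under 0.05 in the fit with KI-FL replicate 4 and 0 called by edgeR's adjusted p. Genes of the direct pathway had a median of -0.10 with and -0.09 without KI-FL replicate 4 over 10 genes, with 9 below 0, and those of the indirect pathway one of 0.03 with and -0.02 without KI-FL replicate 4 over 9. Pdyn, the dynorphin precursor of direct-pathway neurons, was counted at 135, 100.1, 134 and 119 CPM in KI-571 mice and 131, 170.2, 164 and 215 CPM in KI-FL mice. The groups overlapped, and the log2 fold change was -0.48 with KI-FL replicate 4 (edgeR unadjusted p = 0.0337, adjusted p = 0.520) and -0.34 without it (unadjusted p = 0.134, adjusted p = 0.828). Interneuron markers had a median of -0.10 with and -0.24 without KI-FL replicate 4 over 16 genes, of which 3 were lower at an unadjusted p under 0.05 (1 without that mouse) and 0 higher. Summed over the list the level was 837, 799, 941 and 915 CPM in KI-571 mice and 949, 1090.1, 983 and 1013 CPM in KI-FL mice. The KI-571 sums were all below the KI-FL sums, closest between KI-571 replicate 3 and KI-FL replicate 1, and the WT sums, 817 to 1235 CPM, spanned most of both groups. Calb2, which encodes calretinin, was all below in KI-571 mice, at 1.92, 2.50, 3.40 and 3.38 CPM in KI-571 mice and 3.52, 3.96, 18.2 and 11.9 CPM in KI-FL mice, with KI-FL replicates 3 and 4 high and a log2 fold change of -1.75 with KI-FL replicate 4 (edgeR unadjusted p = 0.00444, adjusted p = 0.357) and -1.63 without it (unadjusted p = 0.0118, adjusted p = 0.570).

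Genes of neurons outside the striatum were examined next. Cortical excitatory markers had a median of 1.23 with KI-FL replicate 4 over 11 genes and 0.89 without it over 12. The summed level was 275, 651, 272 and 307 CPM in KI-571 mice and 275, 289, 368 and 302 CPM in KI-FL mice, with KI-571 replicate 2 high. Emx1, a cortical transcription factor, was at 0.721, 6.07, 1.04 and 1.72 CPM in KI-571 mice and 0.531, 0.238, 0.303 and 0 CPM in KI-FL mice, all above in KI-571 mice. It was the only gene of the list that was all above, and 1 other was all below. Of the 11 cortical genes, 9 were above 0 and 2 below with KI-FL replicate 4, and 4 of the 11 had no read in that mouse. At an unadjusted p under 0.05 (edgeR), 1 was higher and 1 lower with KI-FL replicate 4, and 0 and 0 without it. Genes of thalamus and hypothalamus had a median of 0.33 with and -0.00084 without KI-FL replicate 4 over 10, of which 3 had no read in that mouse. Agrp, a hypothalamic neuropeptide, was counted at 1.25, 1.01, 1.26 and 0.913 CPM in KI-571 mice and 0.332, 0.475, 0.455 and 0 CPM in KI-FL mice, all above in KI-571 mice, with a log2 fold change of 1.79 with KI-FL replicate 4 (edgeR unadjusted p = 0.00269, adjusted p = 0.322) and 1.39 without it (unadjusted p = 0.00115, adjusted p = 0.336).

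Chaperones and co-chaperones, which fold HTT or hand it to degradation, had a median of -0.07 with and -0.07 without KI-FL replicate 4, and 31 of 47 were below 0. At an unadjusted p under 0.05 (edgeR), 2 of the 47 were lower with and 0 without KI-FL replicate 4. Over all genes 4.23% and 2.97% were lower at that level. The 2 were Tcp1 and Cct3, subunits of the chaperonin that binds the N-terminal part of HTT. Tcp1 was counted at 153, 106, 119.6 and 109 CPM in KI-571 mice and 129.7, 153, 144 and 162 CPM in KI-FL mice, and its log2 fold change was -0.27 with KI-FL replicate 4 (edgeR unadjusted p = 0.0424, adjusted p = 0.548) and -0.23 without it (unadjusted p = 0.114, adjusted p = 0.818). Cct8, another subunit, was at 127, 107, 122 and 124 CPM in KI-571 mice and 137, 147, 131 and 128 CPM in KI-FL mice, all below in KI-571 mice. Hspbp1, a co-chaperone that inhibits the ligase Stub1 (CHIP), was at 47.8, 64.2, 65.9 and 49.3 CPM in KI-571 mice and 55.1, 60.6, 58.6 and 78.3 CPM in KI-FL mice, with a log2 fold change of -0.15 with KI-FL replicate 4 (edgeR unadjusted p = 0.428, adjusted p = 0.837) and -0.03 without it (unadjusted p = 0.871, adjusted p = 0.992). Stub1 was at 47.6, 44.1, 47.05 and 37.1 CPM in KI-571 mice and 47.7, 42.5, 48.01 and 45.7 CPM in KI-FL mice, and Hspa8, the constitutive Hsc70, at 1345, 1061, 1039 and 1115 CPM in KI-571 mice and 1245, 1478, 1268 and 1209 CPM in KI-FL mice. Neither separated the groups, with log2 fold changes of -0.07 ± 0.12 and -0.19 ± 0.15. Proteasome genes had a median of -0.06 with and -0.08 without KI-FL replicate 4 over 38, and genes of the unfolded protein and integrated stress responses one of 0.06 with and 0.04 without KI-FL replicate 4 over 24. Asns, asparagine synthetase, had the smallest p among the latter, at 72.97, 42.1, 51.9 and 59.9 CPM in KI-571 mice and 66.9, 62.2, 78.8 and 81.6 CPM in KI-FL mice.

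Genes of synaptic vesicles and exocytosis had a median of -0.09 with and -0.14 without KI-FL replicate 4, and 24 of 30 were below 0. With that mouse their log2 fold changes ran from -0.30 to 1.32. Nsf, the ATPase that recycles SNARE complexes, was counted at 463, 449.9, 481 and 420.5 CPM in KI-571 mice and 514, 530.0, 553 and 523 CPM in KI-FL mice, without overlap, and its log2 fold change was -0.22 with KI-FL replicate 4 (edgeR unadjusted p = 0.0300, adjusted p = 0.506) and -0.23 without it (unadjusted p = 0.0419, adjusted p = 0.726). Ion channel genes had a median of -0.04 with and -0.08 without KI-FL replicate 4 over 44, glutamate receptors and postsynaptic scaffolds one of -0.01 with and -0.03 without KI-FL replicate 4 over 35. Scn3b, a sodium channel subunit, was counted at 168, 155, 157 and 137 CPM in KI-571 mice and 204, 207, 175 and 169.6 CPM in KI-FL mice, all below in KI-571 mice, giving a log2 difference of -0.29 with KI-FL replicate 4 (edgeR unadjusted p = 0.0166, adjusted p = 0.462) and -0.34 without it (unadjusted p = 0.0100, adjusted p = 0.556). Partners of HTT had a median of 0.01 with and -0.05 without KI-FL replicate 4 over 20. Rcor1, a corepressor that works with the silencer REST, was all below, at 25.7, 22.6, 27.8 and 28.3 CPM in KI-571 mice and 33.99, 28.7, 31.9 and 40.9 CPM in KI-FL mice, giving a log2 difference of -0.38 with KI-FL replicate 4 (edgeR unadjusted p = 0.0156, adjusted p = 0.461) and -0.27 without it (unadjusted p = 0.0723, adjusted p = 0.780).

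The lists of metabolism and daily or acute state held 0 called genes. Over all genes the median was 0.02 with and 0.01 without KI-FL replicate 4. Nuclear-encoded respiratory chain genes had a median of 0.02 with and -0.04 without KI-FL replicate 4 over 74, genes of the mitochondrial genome 0.04 with and 0.13 without KI-FL replicate 4 over 14, and cholesterol synthesis and transport -0.01 with and -0.03 without KI-FL replicate 4 over 28. Msmo1, a sterol oxidase of cholesterol synthesis, was counted at 61.5, 60.6, 63.4 and 66.2 CPM in KI-571 mice and 58.2, 47.8, 44.8 and 50.9 CPM in KI-FL mice, all above in KI-571 mice, giving a log2 difference of 0.32 with KI-FL replicate 4 (edgeR unadjusted p = 0.0144, adjusted p = 0.453) and 0.32 without it (unadjusted p = 0.0237, adjusted p = 0.656). Clock genes had a median of 0.09 with and 0.10 without KI-FL replicate 4 over 18, glucocorticoid-responsive genes -0.11 with and -0.18 without KI-FL replicate 4 over 17, and immediate early genes 0.17 with and 0.23 without KI-FL replicate 4 over 20. In both fits 14 of the 18 clock genes and 15 of the 20 immediate early genes were above 0. Of the 17 glucocorticoid-responsive genes, 6 were above 0 with and 3 without KI-FL replicate 4. Nr4a2, an immediate early transcription factor, was at 1.78, 19.6, 3.89 and 4.46 CPM in KI-571 mice and 3.45, 0.792, 1.52 and 0 CPM in KI-FL mice, with KI-571 replicate 2 high. The 5 sex-linked genes had a median of 0.69 with and 0.84 without KI-FL replicate 4. Among the mice compared, KI-FL replicate 2 alone had no read of the Y-linked genes, and its part in this median was not tested. With the Xist level as a term in the model 14 genes were called, 13 of them among the 16. Without KI-FL replicate 2, as given above, 4 were called, 3 of them among the 16.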

How the data were processed

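Striatal RNA of 19 mice was sequenced, of which the 4 KI-571 and 4 KI-FL mice are compared here. The table that the authors deposited holds raw counts, 1 number per gene and mouse, with no normalization. By the study's methods, BBduk removed adapters and short reads, STAR aligned the remainder to GRCm38, and HTSeq assigned reads to genes. Tool versions for STAR and HTSeq, the gene annotation and strand handling are not given in the sources used here. The 5 HTSeq summary rows, 20.8 to 32.8% of reads by mouse, were not treated as genes, and 4 columns that belong to none of the 19 mice were not used. Reads on genes ranged from 12669809 to 26388542 per mouse, so that 3 counts corresponded to 0.114 to 0.237 CPM.

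Genes were filtered with filterByExpr (minimum count 10, minimum total 15), normalized by TMM and fitted with edgeR 4.0.16 (R 4.3.3) in a model with 1 term per genotype. KI-571 was compared with KI-FL by the quasi-likelihood test, with Benjamini-Hochberg adjustment at 0.05, in 19 mice and in 18 mice without KI-FL replicate 4. The biological coefficient of variation was 0.240 and 0.214. Alternatives used DESeq2 1.42.0, its size factors, other filters, sva 3.50.0, covariates and left-out mice. The sacrifice batch that the study used as a covariate was not used here. The WT mouse that the study left out as a potential outlier could not be matched to a label, and all 7 WT mice entered each fit with WT. The procedure was also run on simulated counts, drawn with the same spread for all genes and no library like KI-FL replicate 4. That setting differs from these data, so no conclusion is drawn from it.

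The comparison and the gene lists were chosen with earlier results of these data known. Genes were named if they passed in either fit, if they were among the 10 higher or 10 lower genes with the smallest p without KI-FL replicate 4 whose groups did not overlap at a mean of at least 1 CPM, if they had the smallest p on their list in either fit, or if they were Htt, Gfap, Hspbp1, Stub1, Hspa8 or sex-linked genes. Other genes were named after their values had been seen. Gene positions are from GENCODE M21 and promoter sequences from RefSeq, both on GRCm38. P-values weigh a difference against the spread between mice of the same genotype. In the main fits this spread was estimated over all genotypes in the fit, WT and KI-96 included, and not from KI-571 and KI-FL mice alone.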

Additional observations from a re-analysis of the deposited data

Results flagged for a closer look

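In 26 of 224 groups of 4 mice that were examined (named genes, summed lists and library measures), 1 mouse lay so far from the other 3 that the gap passed Dixon's 95% critical value. About 11 such cases are given by chance, since the rule picks about 1 group in 20. The values of a mouse with no read are those of the prior count.

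KI-FL replicate 4 was picked 7 times. It had 16384 genes detected and 3186 tested genes at 0 counts, and 4.90% of its reads were not unique, where the rest of its group had 4.40 to 4.46%. Its log2 CPM was -3.25 for Mcm6 (others 0.82 to 1.22), -3.25 for Ifit1 (others -0.29 to 0.14) and -3.25 for Agrp (others -1.19 to -0.78), the value of no read in each case. Its Vwf was high, at 4.44 (others 3.70 to 3.81).

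KI-FL replicate 2 stood apart in the sex-linked genes. Its log2 CPM of Xist was 10.24, and that of Eif2s3y, Kdm5d, Ddx3y and Uty was -3.25, the value of no read. The summed level of the sex-linked list was 1209.6 CPM in this mouse, and among KI-571 mice it was highest in replicate 4, at 206 CPM against 148 to 154 CPM.

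KI-FL replicate 1 had the highest summed level among KI-FL mice for choroid plexus and ependyma (3182 CPM against 68.5 to 224 CPM), for liver secreted proteins (2788 against 24.2 to 138 CPM), for perivascular fibroblasts and meninges (159.7 against 85.3 to 91.4 CPM) and for projection neuron identity (22673 against 18488 to 19180.4 CPM). Its log2 CPM of Gfap was the lowest, at 6.72 against 7.02 to 7.07. KI-FL replicate 3 was highest for Per3, at 6.01, and for Sprr1a, at -2.68, which is 1 read against none in the other KI-FL mice.

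Among KI-571 mice, replicate 1 had the highest log2 CPM of Rpl3, at 9.73 against 8.95 to 9.06, of Vtn, at 6.06, and of Rorb, at 5.14. Replicate 2 had the lowest Cdkn1a, at 3.11 against 3.90 to 3.98, and the highest summed level of cortical excitatory neuron genes, at 651 CPM against 272 to 307 CPM.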

How the results depend on the processing

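The number of genes called moved with most settings, in both fits. With all mice 16 genes were called, and the number was 88 with DESeq2, 25 without the filter on low counts, 1 with 1 surrogate variable, 28 at an adjusted p under 0.1, 5 with Ttr as a covariate and 0 without the 3 mice with high Ttr. It stayed within 1.5 times with DESeq2's size factors (17), a mean of at least 5 CPM (12), only the KI-571 and KI-FL mice in the fit (11), Xist as a covariate (14) and a robust spread (12). Leaving out 1 mouse at a time gave 1 to 15 genes. Without KI-FL replicate 4, 1 gene was called, and the number was 31 with DESeq2, 2 with its size factors, 20 without the filter, 17 with only the mice compared, 3 with Xist as a covariate, 13 at an adjusted p under 0.1, and 0 with a robust spread or without the 3 mice with high Ttr (1246 and 1092 genes at an unadjusted p under 0.05). Leaving out a further mouse gave 0 to 3 genes. Both Ttr settings were chosen after seeing the data, and the cause of these changes was not tested.

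The replicate number was not used to pair the mice in the main fit. The correlations between same-numbered KI-571 and KI-FL mice were -0.0961, -0.00430, 0.0759 and -0.0804, none over 0.1. So few pairs cannot show whether same-numbered mice shared a batch or litter. With the number as a replicate block, 9 genes were called with all mice and 7 without KI-FL replicate 4. KI-571 replicates 1, 2 and 4 did not correlate best with their own number, whereas KI-571 replicate 3 did.

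Over the 71 named genes, 1401 values were recomputed. Of these 1233 kept their direction and their side of the threshold, 140 lost the call, 13 gained it and 15 turned in direction. The 16 called genes, chosen in these same mice, kept their direction in each setting that gave them a value. Xist turned to 0.0267 with Xist as a covariate, and leaving out 1 mouse at a time gave -7.88 to 0.279, the latter without KI-FL replicate 2. Fmod, at -0.01 with all mice, turned to 0.00534 with DESeq2, 0.00658 with its size factors, 0.0175 without the filter, 1.55 with 1 surrogate variable, 0.487 with the replicate block and 0.0383 with Ttr as a covariate. Leaving out 1 mouse at a time gave -0.395 to 1.35 for Fmod, with values above 0 without KI-571 replicate 1 (0.0658), KI-571 replicate 3 (0.0798) and KI-FL replicate 4 (1.35). Without the 3 mice with high Ttr, Rarb turned to 0.0306 and Stub1 to 0.0684. With 1 mouse left out, Stub1 ranged from -0.101 to 0.00785, the latter without KI-571 replicate 4, and Psme1 from -0.370 to 0.00604, the latter without KI-FL replicate 3. None of these 5 genes was called. With 4 mice a group and 12669809 to 22389330 reads a mouse, genes under about 1 CPM rest on few reads, and differences among them were detectable only where large.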
